A study of Homo sapiens with 6 samples.

Results

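HMGB proteins and the receptor pathway that senses them were examined as a set of 8 genes chosen by name: the ligands HMGB1, HMGB2 and HMGB3, the receptors AGER, TLR2, TLR3 and TLR4, and the adaptor MYD88. Every probe set whose annotation gives exactly 1 gene symbol, and that symbol one of the 8, was taken, which gave 26 of the 39341 probe sets and 6 of the 8 genes. TLR2 and TLR3 have no probe set under their symbols in the annotation used and were not analysed here. The cells were HFL-1, an established human fetal lung fibroblast line, infected transiently with a lentivirus in the presence of polybrene. By the deposited labels, the HYAL1-labelled samples received the virus with human HYAL1, a hyaluronidase, and the control-labelled samples the empty vector CON335, but the level of HYAL1 goes against these labels. Each group held 3 samples, and their RNA was read on PrimeView arrays, which probe the 3′ part of transcripts. The titles call the samples biological replicates, and no source used here says how the cultures were kept apart, so p-values measure only the spread between these samples, and the number of arrays limits the precision.

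HYAL1 had log2 values of 4.81, 4.82 and 4.67 in the HYAL1-labelled arrays, against 7.48, 7.49 and 7.46 in the control-labelled arrays, so that they differed by -2.71 (SE 0.0455, adjusted p = 7.78e-07 from limma). A supplementary table of the study heads the same arrays in the opposite way, with the HYAL1-labelled arrays as NC and the control-labelled arrays as OE. All directions below follow the deposited labels, and under the headings of that table every sign would turn. Differences are HYAL1-labelled minus control-labelled, on the log2 scale, so that 1 unit is a doubling. The array medians were 6.97 to 7.01. Over all probe sets, which are not independent of each other, pairs of arrays of the same group correlated at 0.9984 to 0.9989 (Pearson r) and pairs of different groups at 0.9978 to 0.9982.

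HMGB proteins are abundant chromatin proteins that bend DNA through paired HMG boxes. Outside the cell, after secretion or release from damaged cells, HMGB1 acts as an alarm signal. It is sensed by RAGE, the product of AGER, and by Toll-like receptors, of which TLR4 signals through the adaptor MyD88 and IRAK kinases to NF-kappaB and AP-1 and so to cytokine and chemokine genes. In the lung RAGE is best known as an abundant surface protein of type I alveolar epithelial cells, and extracellular HMGB1 is known to act on fibroblasts. The arrays read transcripts, not the secreted or surface proteins.

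The promoters of HMGB1, HMGB3 and AGER are shown because these were the 3 genes whose groups did not overlap. Each sequence is the 250 bases before a RefSeq transcription start (GRCh38.p14), read in the direction of transcription, at chr13:30465937-30466186 on the minus strand for HMGB1, chrX:150983085-150983334 on the plus strand for HMGB3 and chr6:32184254-32184503 on the minus strand for AGER. Capitals mark CCAAT, the box bound by NF-Y, in HMGB1 and HMGB3, and GGGCGG, the GC box bound by SP1, in AGER. Each sequence was marked for its named motif only, and the HMGB3 sequence also holds GGGCGG, left unmarked. Where a gene has several starts, the window with the most matches is shown.
HMGB1: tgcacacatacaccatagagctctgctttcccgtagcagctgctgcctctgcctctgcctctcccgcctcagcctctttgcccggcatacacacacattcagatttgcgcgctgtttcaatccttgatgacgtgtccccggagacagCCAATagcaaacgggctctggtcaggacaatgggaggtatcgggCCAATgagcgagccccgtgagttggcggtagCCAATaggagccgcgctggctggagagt
HMGB3: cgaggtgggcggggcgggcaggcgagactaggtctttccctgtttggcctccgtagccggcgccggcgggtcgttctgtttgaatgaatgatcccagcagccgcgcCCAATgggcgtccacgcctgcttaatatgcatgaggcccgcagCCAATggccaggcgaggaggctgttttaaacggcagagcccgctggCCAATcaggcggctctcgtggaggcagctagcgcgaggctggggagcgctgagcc
AGER: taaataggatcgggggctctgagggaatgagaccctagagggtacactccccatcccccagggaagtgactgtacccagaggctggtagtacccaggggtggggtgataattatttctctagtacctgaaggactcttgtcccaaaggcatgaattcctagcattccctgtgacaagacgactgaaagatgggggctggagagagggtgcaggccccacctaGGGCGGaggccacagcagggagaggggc

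HMGB1 and HMGB3 each carried 3 CCAAT boxes in the direction of transcription, at 24 to 103 and at 51 to 144 bases before the start. Of 35116 promoter windows of this length searched on both strands, 32.0% held at least 1 CCAAT and 2.93% held at least 3. These shares count every window, whereas the windows shown were picked for the most matches, so the shares do not measure how rare the shown windows are. HMGB1 has 3 windows in the table, 2 of them with the box, and HMGB3 has 2, 1 of them with the box. The GC box of AGER lay 23 to 28 bases before the start, and 42.6% of all windows held at least 1. Of the 8 genes, 7 had a window, and HMGB2 had none in the table used. A match describes the letters only.

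None of the 6 measured genes passed limma's test among all 15277 genes (0 at an adjusted p under 0.05, 2 at an unadjusted p under 0.05, namely AGER and HMGB3). Over all genes the same test called 253 (1.66%), 68 higher (0.445%) and 185 lower (1.21%) in the HYAL1-labelled arrays, and 2660 (17.4%) had an unadjusted p under 0.05. For 3 of the 6 genes, HMGB1, HMGB3 and AGER, every HYAL1-labelled array lay above every control-labelled array, where 24.4% of all genes showed such a separation in one direction or the other. The median difference of the 6 genes was 0.07, and that of all genes was 0.01. When the prior variance was allowed to depend on a gene's mean (the trend setting of limma), 1 of the 6, AGER, was called, against 6.7% of all genes.

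**Figure D1:**
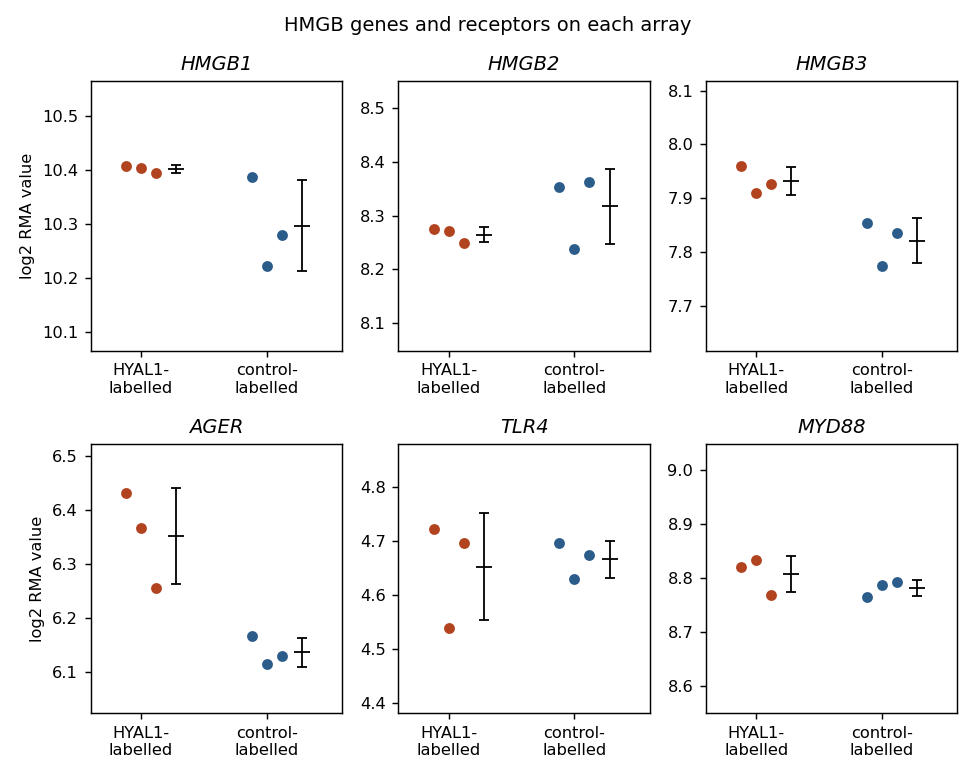
Log2 RMA value (vertical axis, a window of equal height in each panel) of the 6 measured genes on each array, by group, at the brightest probe set of the gene. Points are the 3 arrays of a group and the bar beside them is the mean ± SD. The points of the groups are separate for HMGB1, HMGB3 and AGER and overlap for HMGB2, TLR4 and MYD88.

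HMGB1 is the HMGB protein best known as an extracellular ligand. Its brightest probe set (11758181_s_at) read 10.41, 10.40 and 10.39 in the HYAL1-labelled arrays, against 10.39, 10.22 and 10.28 in the control-labelled arrays. The means were 10.40 ± 0.00687 and 10.30 ± 0.0839 (SD, n = 3 each), a difference of 0.11 or 1.08-fold (SE 0.0456, 95% interval -0.00183 to 0.212, adjusted p = 0.295 from limma). The groups touched without overlapping: the lowest HYAL1-labelled array was at 10.3945 and the highest control-labelled array at 10.3877 (p = 0.10 in a two-sided exact permutation test, below which 3 arrays against 3 cannot go). The HYAL1-labelled arrays lay close together, and most of the spread was among the control-labelled arrays, of which replicate 2 was lowest.

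The other 6 probe sets of HMGB1 gave differences of -0.01 to 0.13, and 5 of them were positive. One of them (11745717_x_at) read 9.87, 9.93 and 9.90 in the HYAL1-labelled arrays, against 9.77, 9.81 and 9.82 in the control-labelled arrays, so that they differed by 0.10 (SE 0.0342, adjusted p = 0.207 among all probe sets from limma, 0.0451 with the trend setting). Of the 7 probe sets, 4 had groups that did not overlap, all higher in the HYAL1-labelled arrays. The exception in sign was 11760158_at, the dimmest, which read 6.05, 6.05 and 6.20 in the HYAL1-labelled arrays, against 6.09, 6.17 and 6.06 in the control-labelled arrays. The human genome holds many processed copies of HMGB1, and the suffixes _s_at and _x_at mark probe sets that may also match other transcripts, so these sets may not read HMGB1 alone and may share signal with each other.

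HMGB2, the paralog most tied to dividing cells, was read by a single probe set (11743687_s_at). It read 8.28, 8.27 and 8.25 in the HYAL1-labelled arrays, against 8.35, 8.24 and 8.36 in the control-labelled arrays, so that they differed by -0.05 (SE 0.0412, 95% interval -0.149 to 0.0445, adjusted p = 0.562 from limma). The groups overlapped, because control-labelled replicate 2 lay below all HYAL1-labelled arrays (p = 0.40, two-sided exact permutation test). Without that replicate the difference was -0.09.

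HMGB3, a paralog best known from embryonic and blood-forming cells, read 7.96, 7.91 and 7.93 in the HYAL1-labelled arrays, against 7.85, 7.77 and 7.84 in the control-labelled arrays (11745130_x_at). The means were 7.93 ± 0.0259 and 7.82 ± 0.0416 (SD, n = 3 each), a difference of 0.11 (SE 0.0350, 95% interval 0.0286 to 0.193, adjusted p = 0.174 from limma). The groups did not overlap (p = 0.10, two-sided exact permutation test). Its other probe set (11754183_s_at) read 6.51, 6.38 and 6.35 in the HYAL1-labelled arrays, against 6.38, 6.11 and 6.28 in the control-labelled arrays, with a difference of 0.16 (adjusted p = 0.329 from limma among all probe sets) and groups that overlapped.

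AGER, which encodes RAGE, had the largest difference of the 6 genes at the brightest probe sets, but not with the probe sets of a gene averaged. Its brightest probe set (11762194_x_at) read 6.43, 6.37 and 6.26 in the HYAL1-labelled arrays, against 6.17, 6.11 and 6.13 in the control-labelled arrays. The means were 6.35 ± 0.0888 and 6.14 ± 0.0268 (SD, n = 3 each), a difference of 0.21 or 1.16-fold (SE 0.0486, 95% interval 0.101 to 0.329). The groups did not overlap (p = 0.10, two-sided exact permutation test), and the adjusted p was 0.0840 from limma and 0.0402 with the trend setting. All 6 values were under the median of the array's background probe sets (6.69 to 6.90), which match no human transcript. The 9 background probe sets are numbered by GC content, and their group means ran from 4.50 to 11.2. On every array their median was the value of a single set, AFFX-BkGr-GC21_at. AGER lay above the dimmer of these sets, and HMGB1 lay below the brightest, so the median is only a rough mark of low signal.

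The other 9 probe sets of AGER did not share this size. Their differences ran from -0.03 to 0.11, 7 of them positive, with adjusted p from 0.227 to 0.997 (limma among all probe sets). One of the 9 (11753676_x_at) had groups that did not overlap, with a difference of 0.11. With the probe sets averaged, AGER differed by 0.05 (adjusted p = 0.587 from limma), less than HMGB3 at 0.14, MYD88 at 0.11 and HMGB1 at 0.09.

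TLR4, the receptor of bacterial lipopolysaccharide that also responds to HMGB1, read 4.72, 4.54 and 4.70 in the HYAL1-labelled arrays, against 4.70, 4.63 and 4.67 in the control-labelled arrays (11743196_a_at). The groups overlapped, and the difference was -0.01 (SE 0.0531, 95% interval -0.139 to 0.111, adjusted p = 0.925 from limma). Its other probe set differed by 0.09 in the opposite direction (adjusted p = 0.437 among all probe sets). TLR4 lay below the background median on every array, as did AGER, so these 2 receptors were measured at a low level, and the 4 other genes lay above it on every array.

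MYD88, the adaptor of most Toll-like receptors and of the interleukin-1 receptor, read 8.82, 8.83 and 8.77 in the HYAL1-labelled arrays, against 8.77, 8.79 and 8.79 in the control-labelled arrays (11720624_a_at). The groups overlapped, and the difference was 0.03 (SE 0.0321, 95% interval -0.0500 to 0.101, adjusted p = 0.736 from limma). Its other 3 probe sets gave larger differences of 0.13 to 0.16. The one with the lowest p (11720623_a_at) read 7.50, 7.46 and 7.50 in the HYAL1-labelled arrays, against 7.24, 7.37 and 7.39 in the control-labelled arrays, so that they differed by 0.16 (SE 0.0460, adjusted p = 0.154 from limma among all probe sets). A second (11747538_a_at) read 7.87, 7.88 and 7.78 in the HYAL1-labelled arrays, against 7.67, 7.70 and 7.77 in the control-labelled arrays, and in both sets the groups did not overlap. The last (11747539_x_at) read 8.03, 8.08 and 8.06 in the HYAL1-labelled arrays, against 7.83, 7.90 and 8.04 in the control-labelled arrays, a set whose groups overlapped.

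**Figure D2:**
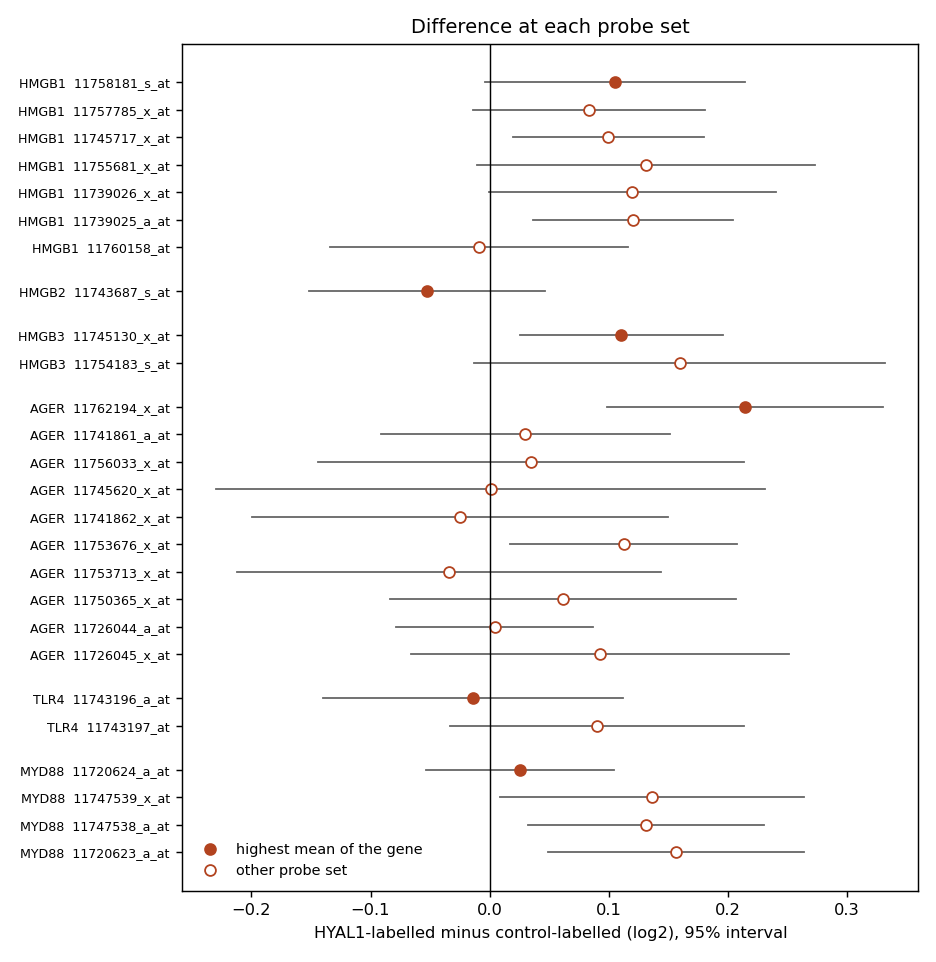
Difference, HYAL1-labelled minus control-labelled on the log2 scale (horizontal axis), at each of the 26 probe sets of the 6 genes, with limma's 95% interval as the line. Filled points are each gene's probe set of highest mean and open points the others. Most points lie right of 0, the AGER probe set of highest mean stands apart from the 9 other AGER sets, and the filled point of MYD88 lies left of its 3 open points.

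Of the 26 probe sets, 21 were higher in the HYAL1-labelled arrays, where 55.7% of all probe sets had a difference above 0. The differences ran from -0.05 to 0.21, with a median of 0.09. In 9 of the 26 the groups did not overlap, all 9 higher in the HYAL1-labelled arrays, against 13.2% of all probe sets. At an unadjusted p under 0.05 there were 8 of the 26, against 17.1% of all probe sets. None was called by limma, where 1.42% of all probe sets were, and the lowest adjusted p was 0.0900, for AGER. The trend setting called 2, one of HMGB1 and one of AGER, against 6.45% of all probe sets. Probe sets of a gene read the same RNA and are not replicates, so these counts describe the set and carry no test.

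The background of the arrays was read in the same way. The 9 background probe sets were all higher in the HYAL1-labelled arrays, with differences of 0.02 to 0.14 (adjusted p from 0.236 to 0.827, limma). That range also holds the differences of HMGB1, HMGB3 and MYD88 at their brightest probe sets. Only the background sets GC24 (0.106) and GC25 (0.141) reached the difference of HMGB1 (0.105), and only GC25 that of HMGB3 (0.111). The part of background in these differences was not tested. The median of the 9 sets was 6.90, 6.78 and 6.79 in the HYAL1-labelled arrays, against 6.69, 6.89 and 6.71 in the control-labelled arrays, a mean difference of 0.06. Control-labelled replicate 2 was the highest control-labelled array at all 9 background probe sets. It was the lowest control-labelled array at 13 of the 26 probe sets of the HMGB genes and receptors. Among these were 5 of 7 of HMGB1 and both of HMGB3. The same count over all probe sets is not given here, and probe sets of a gene may share signal, so the 13 have no comparison. Without control-labelled replicate 2 the difference of HMGB1 was 0.07 (adjusted p = 0.465 from limma), and that of AGER was 0.20. After each array was shifted by the median of its background probe sets, an alternative chosen after seeing the data, the difference was 0.05 for HMGB1, -0.11 for HMGB2, 0.06 for HMGB3, 0.16 for AGER (adjusted p = 0.918 from limma) and -0.03 for MYD88.

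The pathway around the members was read through 9 lists of related genes, with 135 of 162 genes measured. Of the 135, 7 passed limma's test (5.19%, against 1.66% of all genes), 3 higher and 4 lower in the HYAL1-labelled arrays. At an unadjusted p under 0.05 there were 29 (21.5%), against 17.4% of all genes. All 7 belonged to the steps below the receptors, and 5 of them to the cytokine and adhesion targets. The lists were chosen with earlier results of these data known, so these shares describe the lists and carry no test.

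Among the ligands and their relatives no gene passed. Of 15 measured HMG-box relatives and other HMG proteins, 0 passed, with a median of 0.04. At an unadjusted p under 0.05 there were 4 of the 15, against 17.4% of all genes, and with the trend setting 3, all higher, against 6.7% of all genes called in either direction. HMGN3, a nucleosome-binding protein, differed by 0.14 (adjusted p = 0.0713), the HMG-box protein HMG20B by 0.14 (0.106), SSRP1, a subunit of the histone chaperone FACT, by 0.11 (0.132) and UBTF, a factor of ribosomal RNA transcription, by 0.11 (0.219). Only 2 of the 4 probe sets of UBTF had this sign. Of 11 other RAGE ligands 0 passed, with a median of 0.04. The amyloid precursor APP differed by -0.13 (adjusted p = 0.165), and the calcium-binding S100A4 by 0.06 (0.396), S100A11 by -0.06 (0.456) and S100A6 by 0.05 (0.460). Of 12 genes of HMGB1 release and modification 0 passed. CASP1, the inflammasome protease, came nearest with 0.19 (adjusted p = 0.0598, and 0.00519 with the trend setting), followed by the kinase PRKCA at -0.09 (0.211), the acetyltransferase CREBBP at 0.05 (0.420) and PARP1, which modifies HMGB1, at 0.06 (0.515).

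Around the receptors no gene passed either. Of 12 other receptors and binding partners 0 passed (3 at an unadjusted p under 0.05, against 17.4% of all genes), with a median of -0.03. On every array 8 of the 12 lay below the background median. TREM1, a receptor that amplifies Toll-like receptor signals, differed by 0.17 (adjusted p = 0.10), CXCL12, the chemokine that forms a complex with HMGB1, by 0.13 (0.139), TLR6 by -0.13 (0.236) and THBD, which binds HMGB1, by -0.14 (0.308). Of 8 genes that fold or carry the receptors 0 passed (0 at an unadjusted p under 0.05), and the chaperone HSP90B1 differed by 0.07 (adjusted p = 0.363), TRIL by 0.10 (0.437), TMED7 by -0.05 (0.439) and RAB11A by -0.05 (0.520). TRIL lay below the background median on every array, and 1 of its 2 probe sets had the sign given.

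Below the receptors, IRAK1, the kinase recruited by MyD88, rose in the HYAL1-labelled arrays. It read 8.72, 8.70 and 8.69 in the HYAL1-labelled arrays, against 8.52, 8.55 and 8.55 in the control-labelled arrays, so that they differed by 0.16 (SE 0.0297, adjusted p = 0.0482 from limma). It was the 1 of 24 adaptors and kinases that passed, and the list median was 0.00. MAP2K6, a kinase that activates p38, differed by 0.25 (adjusted p = 0.0629), PELI1, a ubiquitin ligase, by 0.14 (0.199) and TICAM1, the adaptor TRIF, by -0.06 (0.383). MAP2K6 and PELI1 lay below the background median on every array, and only 1 of the 3 probe sets of PELI1 had the sign given. JUN, a subunit of AP-1, was the 1 of 13 transcription factors that passed. It read 10.11, 10.11 and 10.12 in the HYAL1-labelled arrays, against 9.94, 9.92 and 9.96 in the control-labelled arrays, so that they differed by 0.18 (SE 0.0292, adjusted p = 0.0379 from limma). NFKB1, a subunit of NF-kappaB, differed by -0.10 (adjusted p = 0.203), and the interferon regulatory factors IRF5 by 0.10 (0.204) and IRF3 by 0.15 (0.259). Of 18 inhibitors of the pathway 0 passed (3 at an unadjusted p under 0.05, against 17.4% of all genes). DUSP1, a phosphatase of MAP kinases, differed by -0.17 (adjusted p = 0.0731), SIGIRR, a receptor that dampens signaling, by 0.16 (0.112) and CYLD, a deubiquitinase, by -0.11 (0.174), while TOLLIP, a Toll-interacting protein, differed by 0.10 (0.304).

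**Figure D3:**
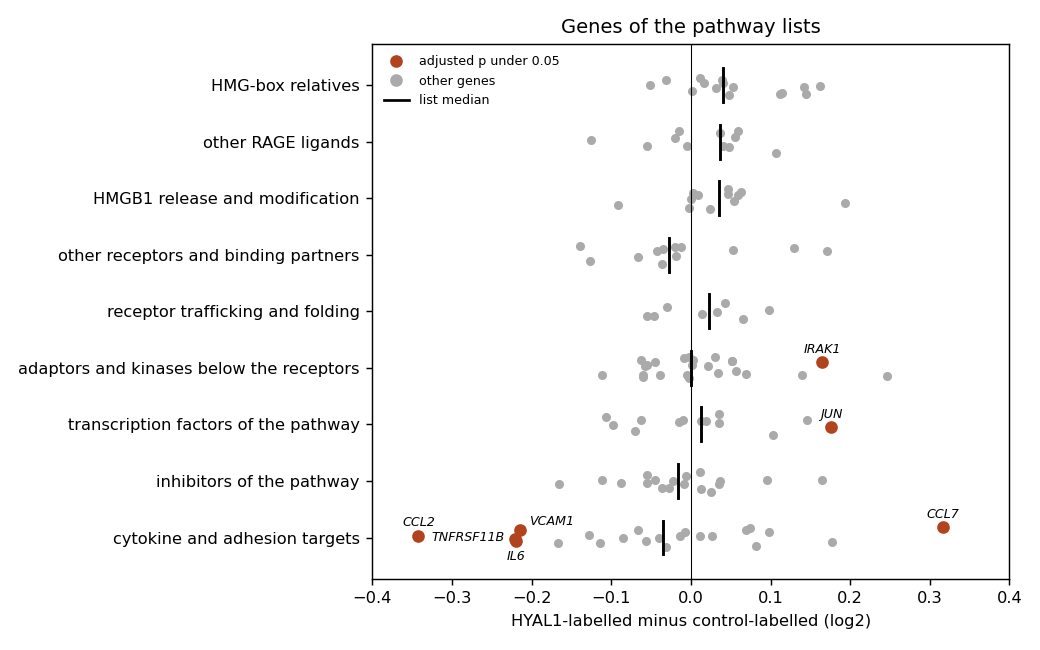
Difference, HYAL1-labelled minus control-labelled on the log2 scale (horizontal axis), of each measured gene of the 9 pathway lists (rows). Filled red points passed limma's test (adjusted p under 0.05), grey points did not, and the bar is the list median. The 7 named points all lie in the lower rows, and the medians of all lists lie between -0.04 and 0.04.

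Cytokine and adhesion targets held most of the calls, more of them lower than higher in the HYAL1-labelled arrays. Of 22 measured genes, 1 rose and 4 fell in the HYAL1-labelled arrays, against 0.445% and 1.21% of all genes, with a list median of -0.04, and 13 of the 22 lay below the background median on every array. At an unadjusted p under 0.05 there were 9 of the 22, 7 lower and 2 higher, against 17.4% of all genes. The trend setting called 5 lower and 2 higher, against 6.7% of all genes in either direction. CCL2, a chemokine that attracts monocytes, read 9.60, 9.58 and 9.67 in the HYAL1-labelled arrays, against 9.95, 9.93 and 10.00 in the control-labelled arrays, so that they differed by -0.34 (SE 0.0380, adjusted p = 0.0124 from limma). TNFRSF11B, the decoy receptor osteoprotegerin, read 11.21, 11.23 and 11.24 in the HYAL1-labelled arrays, against 11.40, 11.44 and 11.51 in the control-labelled arrays. Its difference was -0.22 (SE 0.0368, adjusted p = 0.0379 from limma). VCAM1, an adhesion molecule for leukocytes, read 8.27, 8.31 and 8.36 in the HYAL1-labelled arrays, against 8.50, 8.55 and 8.53 in the control-labelled arrays, so that they differed by -0.21 (SE 0.0365, adjusted p = 0.0403 from limma).

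CCL7, a chemokine related to CCL2, went the other way, with 5.15, 5.08 and 5.05 in the HYAL1-labelled arrays, against 4.77, 4.71 and 4.85 in the control-labelled arrays. Its difference was 0.32 (SE 0.0473, adjusted p = 0.0276 from limma). The cytokine IL6, named after its values were seen, read 6.25, 6.33 and 6.24 in the HYAL1-labelled arrays, against 6.46, 6.50 and 6.52 in the control-labelled arrays, so that they differed by -0.22 (SE 0.0377, adjusted p = 0.0422 from limma). CCL7 and IL6 lay below the background median on every array. In each of the 7 genes that passed, the groups did not overlap, as in 24.4% of all genes. The test chose the 7 by the same values, so this adds no support. JUN is read by 4 probe sets and VCAM1 by 2, all with the sign given, whereas the other probe set of IL6 had the opposite sign.

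**Figure D4:**
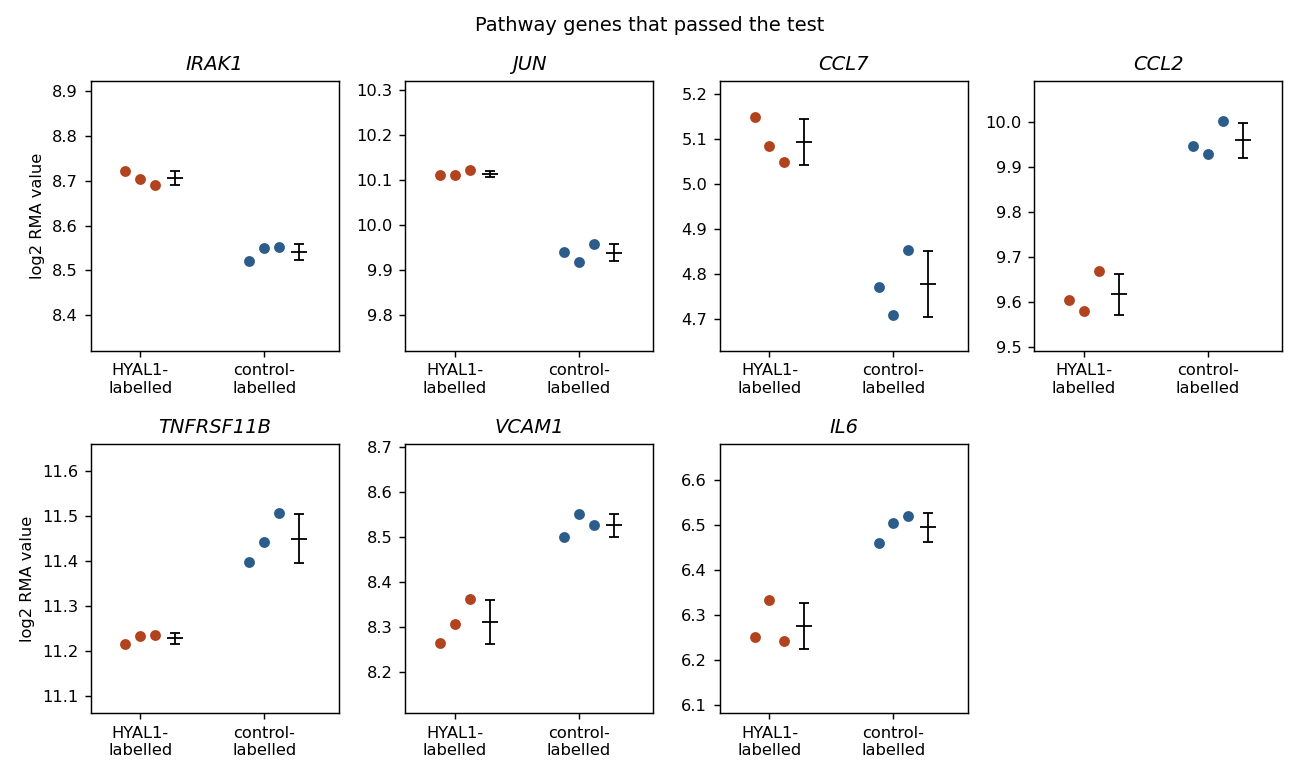
Log2 RMA value (vertical axis, a window of equal height in each panel) on each array of the 7 pathway genes that passed limma's test, by group. Points are the 3 arrays of a group and the bar is the mean ± SD. IRAK1, JUN and CCL7 lie higher in the HYAL1-labelled arrays, and CCL2, TNFRSF11B, VCAM1 and IL6 lie lower there.

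The 7 calls had adjusted p from 0.0124 (CCL2) to 0.0482 (IRAK1) in limma's main fit and depended on the setting. With the trend setting all 7 passed (adjusted p from 6.59e-06 for CCL2 to 0.0223 for IL6, limma), where 6.7% of all genes were called. Fits with 1 array left out called 15 to 52 of all genes, against 253 with every array. With any 1 array left out, none of IRAK1, JUN, CCL7, TNFRSF11B, VCAM1 and IL6 passed (adjusted p from 0.0667 to 0.181, limma), and CCL2 passed in 2 of 6 such fits (0.0364 to 0.0879). After the shift by the background median, CCL2 passed (difference -0.40, adjusted p = 0.00481) and the other 6 did not, with IRAK1 at 0.11 and JUN at 0.12. With the unpaired test that a figure legend of the study names, run without limma, IRAK1 (adjusted p = 0.0487) and JUN (0.0374) passed, and CCL2 (0.0638) and the other 4 (0.102 to 0.113) did not.

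HMGB2 and other cell cycle genes were set beside each other because HMGB2 follows cell division. Of 26 proliferation genes 1 passed, the mitotic kinase AURKA, which read 9.61, 9.58 and 9.61 in the HYAL1-labelled arrays, against 9.74, 9.78 and 9.79 in the control-labelled arrays (difference -0.17, adjusted p = 0.0493 from limma). Over all genes 1.66% passed. AURKA missed the threshold with any 1 array left out (0.0881 to 0.196). At an unadjusted p under 0.05 there were 8 of the 26, against 17.4% of all genes, 7 of them higher (CENPF, MCM3, MCM4, MCM5, MCM6, MCM7 and TYMS) and 1, AURKA, lower in the HYAL1-labelled arrays. The mean level of the list was 6.88 to 6.91 in the HYAL1-labelled arrays and 6.82 to 6.85 in the control-labelled arrays, without overlap. Of the 26 genes, 15 lay below the background median on every array. The mean levels of the HMG-box relatives, of HMGB1 release and modification and of the cytokine and adhesion targets also did not overlap. Those of the cytokine and adhesion targets were lower in the HYAL1-labelled arrays. The median difference of the proliferation list was 0.07, opposite in sign to the difference of HMGB2. The enzymes TYMS, of thymidylate synthesis, and MCM4 and MCM5, of the replicative helicase, differed by 0.14 (adjusted p = 0.0762), 0.18 (0.0840) and 0.13 (0.130). In bulk samples, fewer cells of a type and less RNA per cell cannot be told apart.

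The labelled cell type was checked by its markers. All 12 fibroblast markers lay above the background median on every array, and COL1A1, the main chain of type I collagen, passed with a difference of -0.27 (adjusted p = 0.0152 from limma). It passed in 1 of 6 fits with 1 array left out (0.0436 to 0.0931). POSTN, a matricellular protein, differed by 0.15 (adjusted p = 0.0617), the surface protein THY1 by -0.11 (0.116) and the proteoglycan LUM by -0.20 (0.136). At an unadjusted p under 0.05 there were 7 of the 12 fibroblast markers, against 17.4% of all genes, 6 of them lower. The trend setting called 6 lower and 1 higher, against 6.7% of all genes in either direction. The mean level of the fibroblast list was 11.45 to 11.47 in the HYAL1-labelled arrays and 11.49 to 11.53 in the control-labelled arrays, without overlap. Below the background median on every array lay 6 of 9 leukocyte, 5 of 6 endothelial and 5 of 9 epithelial markers. Over all genes 6177 of 15277 lay there. Above it on every array lay CD68 and TYROBP (leukocyte), TEK (endothelial), MUC1 (epithelial) and KRT19 (epithelial, means 8.97 and 8.94). Of the markers of these other cells 0 passed the test (1 at an unadjusted p under 0.05, among the leukocyte genes). Nearest to the threshold in these lists were CSF1R with 0.11 (adjusted p = 0.235), TIE1 with 0.09 and TEK with -0.09 (0.312 each), and SFTPC with -0.10 (0.368). The sign given was shared by 3 of the 6 probe sets of TIE1 and by 2 of the 7 of SFTPC. The mean level of the epithelial list was 6.15 to 6.19 in the HYAL1-labelled arrays and 6.14 to 6.18 in the control-labelled arrays. For the leukocyte list it was 5.80 to 5.85 in the HYAL1-labelled arrays and 5.77 to 5.86 in the control-labelled arrays. The endothelial list averaged 6.06 to 6.15 in the HYAL1-labelled arrays and 6.10 to 6.17 in the control-labelled arrays. The part of other cells in the difference of AGER was not tested.

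The genes whose 6 values ran most like those of HMGB1 were PER1, a clock gene (Pearson r = 0.9973), PHF6 (0.9918) and EEF1A2 (0.9903). For HMGB2 they were NEU2 (0.9917), DNAJB4 (0.9891) and GPR82 (0.987), and for AGER NXT2 (0.9949), TRIP10 (0.9922) and PKM (0.9888). These are the highest of 15277 correlations over 6 arrays that share their scaling, and 29 to 51 genes exceeded 0.95 for each, so they are given as a description.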

How the data were processed

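The deposited values are log2 signals that the authors obtained by RMA (background correction, quantile normalization, 1 summary per probe set). Affymetrix Power Tools is also named in the submitters' processing notes, and its version is not given in the sources used here. Of 39341 probe sets, 36097 carry 1 gene symbol in the annotation used, 1397 several, 1 of them with a symbol of the set, and 1847 none. Probe sets with 1 symbol were kept, and the one of highest mean represented a gene (9345 genes had several), giving 15277 genes. HYAL1, which has no symbol there, was added by its values in a supplementary table (within 0.001).

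Groups were compared with limma 3.58.1 in R 4.3.3 (empirical Bayes, 1 prior variance, Benjamini-Hochberg over all genes or all probe sets, threshold 0.05). The scripts were tested on simulated data. Figures used Python 3.11.15 and matplotlib 3.10.9. The members and lists were chosen with earlier results of these data known. Named were all members, in each list up to 4 genes of lowest adjusted p, and the 3 genes nearest to HMGB1, HMGB2 and AGER by Pearson r. Alternatives were other probe set rules, removal of the dimmest 30% of genes, renewed normalization, trend settings, array weights, the unpaired test that a figure legend of the study names (its methods name empirical Bayesian modeling), a replicate block and each array left out. Columns of the authors' own comparisons were not used.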

Additional observations from a re-analysis of the deposited data

How the results depend on the processing

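The number of genes called, 253 at first, was 729 with each gene's probe set of lowest p, 673 without the lowest 30% of mean levels, 1024 with the trend, 1079 with the robust trend, 406 with array weights, 90 with the unpaired test that a figure legend of the study names, 107 after the shift by the background median (chosen after seeing the data) and 15 to 52 with 1 array left out. With the replicate block it was 1, with 0 of the HMGB genes and receptors. The deviations of same-numbered arrays from their group means correlated at 0.0629, -0.0229 and 0.235 (r). Arrays of different number were not compared in this way, so these values cannot show whether the numbers mark pairs. The main fit did not take the numbers as pairs. Of the 6 genes 1, AGER, was called without the lowest 30% (adjusted p = 0.0297), with the trend (0.0402), with the robust trend (0.0384) and on all probe sets with the trend (0.0421), its difference staying at 0.21. It was not called with array weights (0.0507), the unpaired test (0.197), arrays centred on their median (0.113), the replicate block (0.132), probe sets averaged (difference 0.05, adjusted p = 0.587), the background shift (0.16, 0.918) or any array left out (0.0717 to 0.243, difference 0.17 to 0.26). HMGB1 (0.05 to 0.15), HMGB3 (0.06 to 0.14) and HMGB2 (-0.11 to -0.03) kept their sign under all 18 alternatives and were called under none. The difference of TLR4 turned to 0.038 with probe sets averaged, 0.090 with the probe set of lowest p, 0.043 without HYAL1-labelled replicate 2 and 0.0012 when control-labelled replicate 1 was left out (range -0.049 to 0.043 over such fits), and the 30% filter removed it. That of MYD88 turned to -0.030 after the background shift. The cause of these changes was not tested. AGER and TLR4 lay below the background median on every array, and whether low signal bears on these changes was not tested.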
